A study of Mus musculus with 4 samples.

Results

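The genes described here are 36 members of the glycolytic pathway and of the response to low oxygen: glycolytic enzymes, glucose and lactate carriers, regulators of glycolytic flux and targets of hypoxia-inducible factor (HIF). They were chosen by gene symbol, with earlier results of these data known. Their shares set beside those of all tested rows may therefore not be independent of the values. All 36 were found among the 26334 rows of the deposited expression table and passed the filter on low values. The RNA came from naive CD4+ T cells of mouse spleen after 5 days in a culture that favours T helper 1 (Th1) differentiation. There were 2 libraries with interleukin-16 (IL-16), a cytokine whose receptor is CD4, and 2 with phosphate-buffered saline (PBS) in its place, and both groups share the Th1 culture. No source used here gives the strain, age or genotype of the mice or the dose of IL-16. Whether replicate libraries are separate animals or separate cultures is likewise not stated, so the p-values describe the spread among 4 libraries, part of which may be technical. The table names no unit, and its values were read as FPKM, fragment counts scaled by transcript length and library size. Comparisons of level between genes rest on that reading. The number of reads behind a value is unknown, and library totals ran from 373924 to 391153 FPKM.

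The titles call the samples Th1 cells, but their source and cell type are labelled as peritoneal macrophage. The median of 14 T cell markers was between 147 and 173 FPKM over the 4 libraries, while 17 macrophage markers had a median from 0.0212 to 0.0501 FPKM. Summed over the macrophage markers, the level was 13.0 and 13.2 FPKM in the IL-16 libraries, against 16.5 and 15.3 FPKM in the PBS libraries. The largest part of each sum was Icam2, at 7.76 and 6.80 FPKM with IL-16 and 11.5 and 9.67 FPKM with PBS. Cd68, the next highest, lay the other way, at 3.60 and 4.88 FPKM with IL-16 and 2.90 and 3.36 FPKM with PBS. Fcgr1, Marco, Timd4 and C1qc were listed at 0 in every library. Medians of B cell, NK and CD8 T cell, dendritic cell and neutrophil, and erythroid markers did not exceed 1.22 FPKM. The CD8 genes lay above that median. Cd8b1 was 7.86 and 6.37 FPKM with IL-16 and 6.75 and 6.25 FPKM with PBS. Cd8a was 2.13 and 2.26 FPKM with IL-16 and 1.99 and 1.99 FPKM with PBS.

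Glycolysis splits glucose into pyruvate in the cytosol. Activated T cells run it at a high rate even when oxygen is present and release much of the pyruvate as lactate. HIF-1α, encoded by Hif1a, is a transcription factor that prolyl hydroxylases mark for destruction when oxygen is available. When it accumulates, in low oxygen or after T cell receptor and mTOR signalling, it pairs with ARNT and binds a short motif, the hypoxia response element, at glycolytic genes and at genes for mitochondrial turnover, blood vessel growth and its own hydroxylases. Th1 cells are a subset known for strong glycolysis, and glycolytic enzymes have been linked to their interferon-gamma production.

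None of the 36 genes passed an adjusted p under 0.05 between IL-16 and PBS libraries in limma, adjusted over all 11882 tested rows, of which 0.219% passed (0.16% as higher and 0.0589% as lower). At an unadjusted p under 0.05, 11 members were lower with IL-16 and 0 were higher. These 11 were 30.6% of the members, where 13.9% of all tested rows were lower by the same rule and 9.59% were higher, 23.4% in all. They were the glucose carrier Slc2a3, the enzymes Pfkl, Pfkm and Pgk1, the lactate carriers Slc16a1 and Slc16a3, the pyruvate dehydrogenase kinase Pdk1 and the HIF targets Bnip3, Bnip3l, Higd1a and Ankrd37. In all of them each IL-16 library lay below each PBS library, as in 22 of the 36 members (61.1%), against 34.8% of all tested rows. In 7 members (19.4%) both IL-16 values lay above both PBS values, against 24.1% of all tested rows, and the groups did not overlap in 58.9% of all tested rows. The median log2 fold change on the log2(FPKM + 1) scale was -0.10 for the 36 members and -0.045 for all tested rows. The summed level of the 36 genes was 12265 and 11385 FPKM in the IL-16 libraries, against 12227 and 12598 FPKM in the PBS libraries, which overlapped. As a share of each library's total it was 3.16% and 3.04% in the IL-16 libraries, against 3.17% and 3.22% in the PBS libraries, which did not overlap, with IL-16 replicate 1 just below PBS replicate 1. The members are measured in whole cultures, so fewer cells with a high level and less RNA per cell cannot be told apart.

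**Figure D1:**
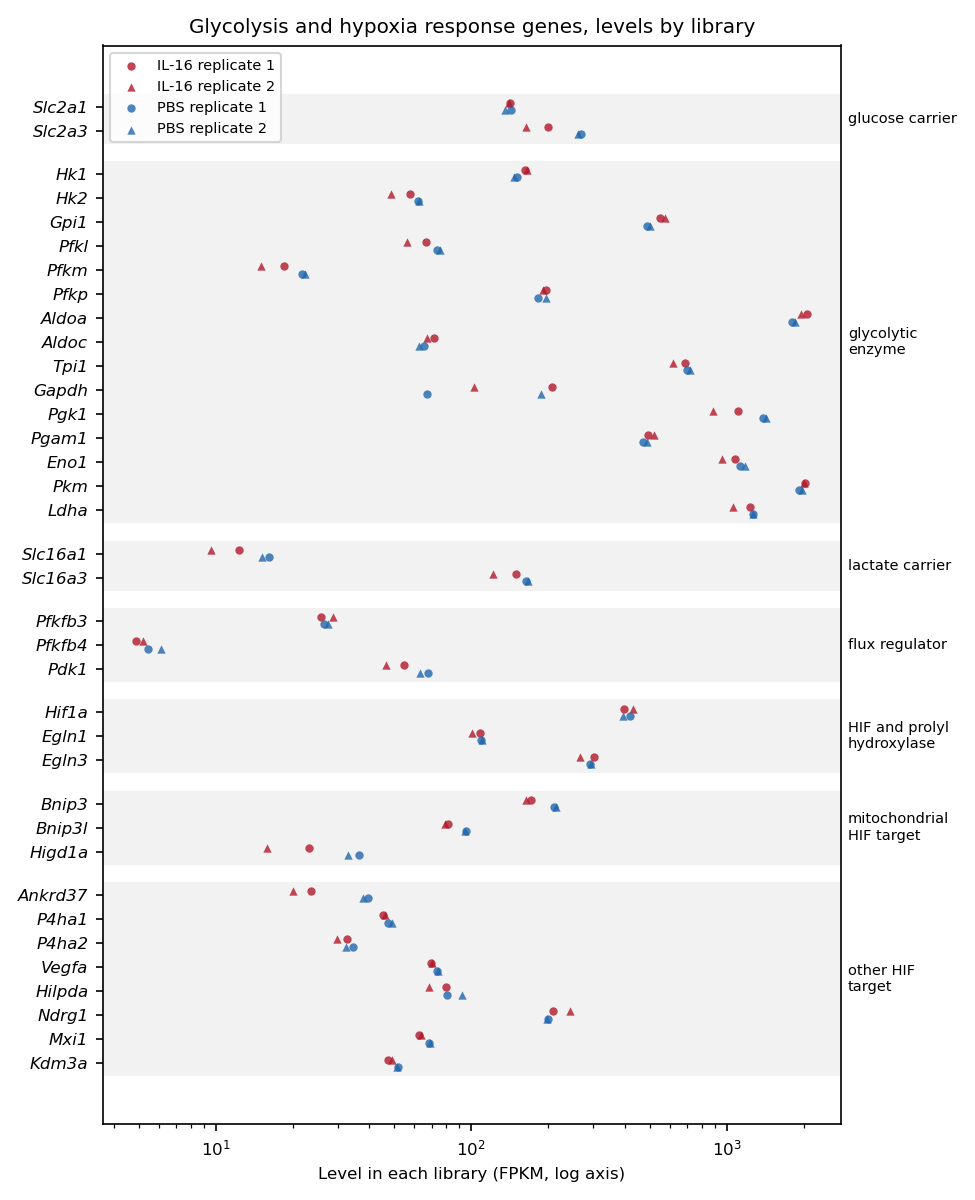
Level of each of the 36 genes in each of the 4 libraries, in FPKM on a log axis, with IL-16 libraries in red above PBS libraries in blue and replicates by symbol. Levels ran from 4.90 FPKM for Pfkfb4 in an IL-16 library to 2063 FPKM for Aldoa in the same library, and Gapdh varied the most within both groups.

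The stretches before the transcription start are shown for 5 members with unadjusted p under 0.05 (Ankrd37, Bnip3, Pgk1, Slc16a1 and Slc16a3) and, for contrast, for Hif1a, whose groups overlapped. They were chosen after the values were seen. The 5 are all such members with 1 RefSeq start and no annotated exon in the window. Each window runs from 250 to 31 bases before the start, 5′ to 3′ on the strand of the gene, from RefSeq on GRCm38.p6. Capitals mark the core letters of the hypoxia response element, ACGTG or GCGTG, on either strand.
Ankrd37, chr8:45999881-46000100, strand -: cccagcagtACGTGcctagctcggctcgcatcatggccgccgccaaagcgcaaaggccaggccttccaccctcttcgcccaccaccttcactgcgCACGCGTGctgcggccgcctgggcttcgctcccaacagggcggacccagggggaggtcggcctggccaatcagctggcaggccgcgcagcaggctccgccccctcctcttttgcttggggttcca
Bnip3, chr7:138909537-138909756, strand -: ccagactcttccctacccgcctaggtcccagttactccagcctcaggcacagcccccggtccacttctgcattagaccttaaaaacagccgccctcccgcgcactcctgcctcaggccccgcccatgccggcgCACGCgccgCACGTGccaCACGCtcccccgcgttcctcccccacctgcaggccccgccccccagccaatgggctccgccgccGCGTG
Pgk1, chrX:106186850-106187069, strand +: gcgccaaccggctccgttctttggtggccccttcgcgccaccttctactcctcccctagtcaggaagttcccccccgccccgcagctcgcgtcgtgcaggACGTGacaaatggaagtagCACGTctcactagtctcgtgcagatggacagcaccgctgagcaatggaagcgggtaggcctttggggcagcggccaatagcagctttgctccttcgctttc
Slc16a1, chr3:104638414-104638633, strand +: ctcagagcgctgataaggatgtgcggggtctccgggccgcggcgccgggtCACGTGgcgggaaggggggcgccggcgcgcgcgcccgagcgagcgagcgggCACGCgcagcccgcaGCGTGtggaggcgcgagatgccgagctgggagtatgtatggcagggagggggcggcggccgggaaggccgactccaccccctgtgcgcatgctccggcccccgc
Slc16a3, chr11:120948817-120949036, strand +: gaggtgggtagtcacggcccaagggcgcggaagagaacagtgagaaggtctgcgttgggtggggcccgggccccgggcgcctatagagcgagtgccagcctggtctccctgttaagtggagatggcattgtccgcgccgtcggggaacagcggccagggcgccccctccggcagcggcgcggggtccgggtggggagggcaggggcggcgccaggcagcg
Hif1a, chr12:73907617-73907836, strand +: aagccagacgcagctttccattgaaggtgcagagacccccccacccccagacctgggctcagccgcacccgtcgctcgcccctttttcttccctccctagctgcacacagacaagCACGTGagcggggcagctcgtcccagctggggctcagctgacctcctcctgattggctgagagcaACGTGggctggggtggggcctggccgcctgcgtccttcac

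In these windows Ankrd37 held 1 ACGTG and 2 GCGTG, Bnip3 held 2 and 3, Pgk1 held 2 and 0, and Slc16a1 held 2 and 2. The Slc16a3 window held neither, although its full 250 bases before the start held 2 ACGTG. The Hif1a window held 3 ACGTG and no GCGTG, so the letters stood before genes whose groups overlapped and before genes whose groups did not. Bnip3, Slc16a1 and Hif1a each had 1 CACGTG, the E-box letters bound by MYC and MAX, which counts as ACGTG on both strands. RefSeq starts were found for 33 of the 36 members, and Bnip3l, Ndrg1 and Slc2a3 were not matched. Of the 52 windows of 250 bases of the matched members, 48.1% held ACGTG on either strand, against 22.3% of 10896 windows of tested genes and 16.6% of all 32851 windows. GCGTG was in 51.9% of member windows, 45.3% of windows of tested genes and 28.2% of all windows. The members include genes picked as HIF targets, so these shares are not independent of how the list was made. A gene with several starts counts once per start, such as Pfkm with 4. A match of letters is not a binding site, and binding was not measured here.

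Of the glucose carriers, Slc2a3 was lower in both IL-16 libraries and Slc2a1 overlapped between the groups. Slc2a3, which encodes the high-affinity glucose transporter GLUT3, was 200.5 and 164 FPKM in the IL-16 libraries, against 268 and 262 FPKM in the PBS libraries. The IL-16 values stood well below those of PBS, with means of 182 ± 25.9 FPKM with IL-16 and 265 ± 4.32 FPKM with PBS (SD, n = 2 each). The log2 fold change was -0.55 (SE 0.11, limma adjusted p = 0.105). Slc2a1, which encodes GLUT1, the carrier induced when T cells are activated, was 142 and 141 FPKM in the IL-16 libraries, against 143 and 136 FPKM in the PBS libraries. The groups overlapped, and the 95% interval of the log2 difference ran from -0.16 to 0.20 (adjusted p = 0.891 in limma). Within each library the level of Slc2a3 divided by that of Slc2a1 was 1.41 and 1.16 in the IL-16 libraries, against 1.87 and 1.93 in the PBS libraries.

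The 15 glycolytic enzymes did not move as a block. The IL-16 libraries lay below the PBS libraries without overlap in 7 of them (Hk2, Pfkl, Pfkm, Tpi1, Pgk1, Eno1 and Ldha) and above in 6 (Hk1, Gpi1, Aldoa, Aldoc, Pgam1 and Pkm), while Pfkp and Gapdh overlapped. These were 46.7% and 40.0% of the enzymes, where 34.8% and 24.1% of all tested rows lay below and above. Their median log2 fold change was 0.033, and 3 of the 15 (20.0%) were lower at an unadjusted p under 0.05 and none higher, not far from the 13.9% of all tested rows that were lower. Without Gapdh, whose level is uncertain, the other 14 enzymes summed to 9816 and 9118 FPKM in the IL-16 libraries, against 9709.8 and 9988 FPKM in the PBS libraries. IL-16 replicate 1 lay between the PBS libraries in this sum and IL-16 replicate 2 below them.

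Pgk1, which encodes phosphoglycerate kinase, the enzyme of the first ATP-yielding step, was the glycolytic enzyme furthest below its PBS level. Its values were 1112 and 881 FPKM in the IL-16 libraries, against 1389 and 1422 FPKM in the PBS libraries. The means were 997 ± 163 FPKM with IL-16 and 1405 ± 22.9 FPKM with PBS (SD, n = 2 each), with both IL-16 libraries lower than both PBS libraries. The log2 fold change was -0.50 (SE 0.14, limma adjusted p = 0.140), and its unadjusted p was 0.0142. Aldoa, which encodes the aldolase that splits fructose 1,6-bisphosphate, was 2063 and 1963 FPKM in the IL-16 libraries, against 1798 and 1857 FPKM in the PBS libraries. These values lay the other way, both IL-16 libraries above both PBS libraries, at a log2 fold change of 0.14 (interval -0.14 to 0.42, adjusted p = 0.468). The level of Pgk1 divided by that of Aldoa, a pair chosen after the values were seen, was 0.539 and 0.449 in the IL-16 libraries, against 0.773 and 0.765 in the PBS libraries.

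At the hexokinase step, which traps glucose as glucose 6-phosphate, Hk1 and Hk2 lay on opposite sides of PBS. Hk2, the inducible hexokinase, was 57.4 and 48.6 FPKM in the IL-16 libraries, against 61.8 and 62.7 FPKM in the PBS libraries. Hk1, the constitutive hexokinase, was 162 and 165 FPKM in the IL-16 libraries, against 151 and 147 FPKM in the PBS libraries. Neither set of libraries overlapped, but neither gene passed (log2 fold changes -0.23 and 0.13, adjusted p = 0.229 and 0.301 in limma). The ratio of Hk1 to Hk2, each by its main row only, was 2.82 and 3.40 in the IL-16 libraries, against 2.44 and 2.35 in the PBS libraries. The deposited table also held a copy row, Hk2-2, with 13.9 and 10.2 FPKM with IL-16 and 7.19 and 1.72 FPKM with PBS. Summed with it, Hk2 came to 71.3 and 58.8 FPKM in the IL-16 libraries, against 69.0 and 64.4 FPKM in the PBS libraries, and these overlapped. The log2 fold change of Hk2 was then -0.041 (adjusted p = 0.835 in limma). So the lower Hk2 level and the higher ratio hold for the main row of Hk2 only.

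The subunits of phosphofructokinase, the committed step of glycolysis, also differed among themselves. The platelet-type subunit Pfkp, the most abundant of the 3 in every library, was 196 and 191 FPKM in the IL-16 libraries, against 183 and 196 FPKM in the PBS libraries, with overlap between the groups. The liver-type subunit Pfkl was 66.6 and 56.2 FPKM in the IL-16 libraries, against 73.6 and 75.2 FPKM in the PBS libraries. The muscle-type subunit Pfkm was 18.5 and 15.1 FPKM in the IL-16 libraries, against 21.7 and 22.4 FPKM in the PBS libraries. Both Pfkl and Pfkm were lower in each IL-16 library than in each PBS library, at log2 fold changes of -0.28 and -0.38 (adjusted p = 0.187 and 0.153 in limma). The level of Pfkm relative to Pfkp was 0.0946 and 0.0789 in the IL-16 libraries, against 0.119 and 0.114 in the PBS libraries.

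The steps around them had smaller differences. Gpi1, which encodes glucose 6-phosphate isomerase, was 547 and 574 FPKM in the IL-16 libraries, against 488 and 501 FPKM in the PBS libraries. That difference, with both IL-16 values above, had a log2 fold change of 0.18 (adjusted p = 0.261). Ldha, whose product turns pyruvate into lactate, was 1238 and 1061 FPKM in the IL-16 libraries, against 1267 and 1272 FPKM in the PBS libraries, and IL-16 replicate 1 lay close to the PBS libraries. Eno1 (enolase) and Tpi1 (triosephosphate isomerase) had log2 fold changes of -0.18 and -0.13, with adjusted p of 0.345 and 0.465 in limma. Tpi1 was 689 and 614 FPKM in the IL-16 libraries, against 699.8 and 720.0 FPKM in the PBS libraries, with the libraries of PBS close together. Pkm, the pyruvate kinase gene, was 2023 and 2004 FPKM in the IL-16 libraries, against 1912 and 1981 FPKM in the PBS libraries, and Pgam1 (phosphoglycerate mutase) and Aldoc (the brain-type aldolase) had log2 fold changes of 0.078 and 0.12. Pkm, Aldoa, Pgk1, Ldha and Eno1 were the 5 most abundant members in every library, none of them under 881 FPKM.

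The values of Gapdh and Eno1 are uncertain, since both have near-identical copies in the genome, and how reads shared with copies were counted is not stated. No copy of Gapdh was analysed here. Gapdh, which encodes glyceraldehyde 3-phosphate dehydrogenase and has many processed pseudogenes in the mouse genome, was 208 and 103 FPKM in the IL-16 libraries, against 67.2 and 187 FPKM in the PBS libraries. It varied more within each group than between them, with a 95% interval of the log2 difference from -1.02 to 1.77. Eno1 was 1079 and 959 FPKM in the IL-16 libraries, against 1132 and 1180.1 FPKM in the PBS libraries, the copy row Eno1-2 was 389 and 365 FPKM with IL-16 and 379 and 340.0 FPKM with PBS, and the retrotransposed Eno1b was 93.3 and 73.4 FPKM with IL-16 and 84.5 and 113 FPKM with PBS. The sum of these 3 rows was 1561 and 1397 FPKM in the IL-16 libraries, against 1595 and 1634 FPKM in the PBS libraries, so IL-16 stayed below PBS when the rows were added.

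Both lactate carriers were lower with IL-16 in each library. Slc16a1, which encodes MCT1, was 12.4 and 9.60 FPKM in the IL-16 libraries, against 16.2 and 15.2 FPKM in the PBS libraries. Its log2 fold change was -0.49 (SE 0.13, adjusted p = 0.137 in limma). Slc16a3, which encodes MCT4, the HIF-inducible carrier that exports lactate from glycolytic cells, was 149.8 and 122 FPKM in the IL-16 libraries, against 163 and 167 FPKM in the PBS libraries. Its log2 fold change was -0.29 (SE 0.11, adjusted p = 0.210). In both genes IL-16 replicate 2 lay further from the PBS libraries than IL-16 replicate 1.

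Among the regulators of flux, Pdk1 stood lower and the PFKFB genes near PBS. Pdk1, whose kinase phosphorylates pyruvate dehydrogenase and so slows the use of pyruvate in mitochondria, was 54.5 and 46.5 FPKM in the IL-16 libraries, against 67.5 and 62.9 FPKM in the PBS libraries. The groups did not overlap (log2 fold change -0.37, SE 0.10, limma adjusted p = 0.138). Pfkfb3, which makes the fructose 2,6-bisphosphate that activates phosphofructokinase, was 25.8 and 28.7 FPKM in the IL-16 libraries, against 26.5 and 27.5 FPKM in the PBS libraries, with overlap and an interval of the log2 difference from -0.20 to 0.22. Its paralogue Pfkfb4 was 4.90 and 5.21 FPKM in the IL-16 libraries, against 5.44 and 6.10 FPKM in the PBS libraries (log2 fold change -0.16, adjusted p = 0.405), slightly below PBS and without overlap.

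**Figure D2:**
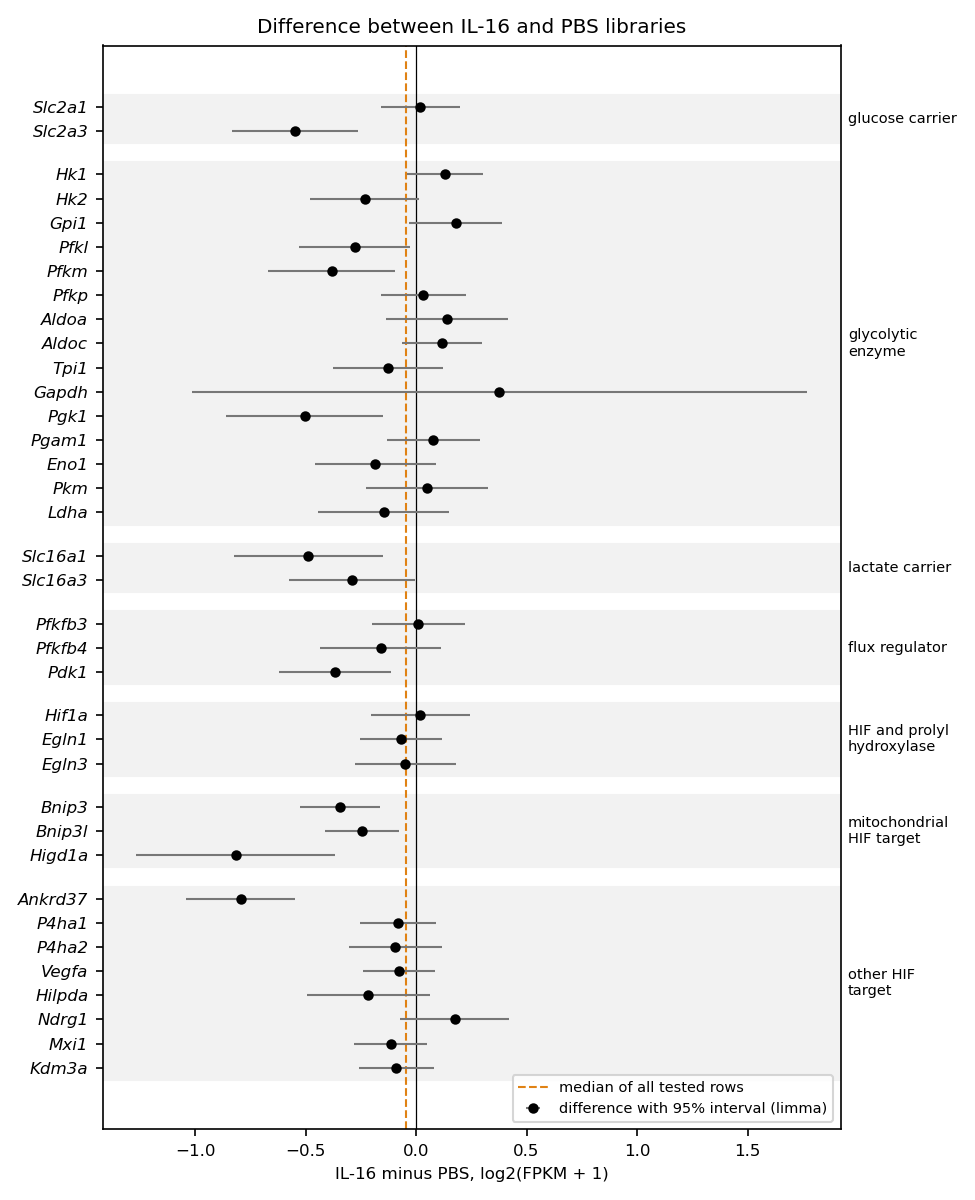
Difference between IL-16 and PBS libraries for each of the 36 genes on the log2(FPKM + 1) scale (points) with the 95% interval from limma (bars), grouped by role, and the median of all tested rows as a dashed line at -0.045. Ankrd37 and Higd1a lie furthest to the left at -0.79 and -0.82, and Gapdh has the widest interval.

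Hif1a itself and the oxygen-sensing hydroxylases differed little. Hif1a was 396 and 430.1 FPKM in the IL-16 libraries, against 420.0 and 394 FPKM in the PBS libraries, which overlapped, and the interval of the log2 difference ran from -0.20 to 0.24 (adjusted p = 0.909 in limma). The log2 fold change of Hif1a was 0.020, or 0.14 with GC content and length corrected for. Egln3, which encodes the hydroxylase PHD3 and is itself a HIF target, was 301 and 267 FPKM in the IL-16 libraries, against 292 and 294 FPKM in the PBS libraries, also with overlap. Egln1, which encodes PHD2, the main hydroxylase of HIF-1α, was 108 and 101 FPKM in the IL-16 libraries, against 109 and 110.0 FPKM in the PBS libraries. Its IL-16 values lay just below the PBS values (log2 fold change -0.069, adjusted p = 0.590). The level of HIF-1α is set largely at the protein, which was not measured here.

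The mitochondrial HIF targets were lower in every IL-16 library than in every PBS library. Bnip3, which encodes a mitophagy receptor of the mitochondrial outer membrane, was 171 and 164 FPKM in the IL-16 libraries, against 210.4 and 215 FPKM in the PBS libraries. Its means were 168 ± 5.31 FPKM with IL-16 and 213 ± 3.15 FPKM with PBS (SD, n = 2 each; log2 fold change -0.34, SE 0.072, limma adjusted p = 0.106). The related receptor gene Bnip3l (also called Nix) was 81.5 and 79.0 FPKM in the IL-16 libraries, against 95.8 and 94.9 FPKM in the PBS libraries. Here the 2 libraries of each group stood close together, and the log2 fold change was -0.25 (SE 0.066, adjusted p = 0.136). Once GC content and transcript length were corrected for, the log2 fold change was -0.22 for Bnip3 and -0.14 for Bnip3l, with unadjusted p of 0.0161 and 0.0731 in limma. Higd1a, whose product sits in the mitochondrial inner membrane and binds respiratory chain complexes, was 23.2 and 15.9 FPKM in the IL-16 libraries, against 36.4 and 33.0 FPKM in the PBS libraries. Its log2 fold change was -0.82 (SE 0.18, adjusted p = 0.109), or -0.80 with the same correction. The spread of Higd1a was wider among IL-16 than among PBS libraries.

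Ankrd37, which encodes an ankyrin repeat protein and is known as a direct HIF-1 target, came nearest to the threshold. It was 23.6 and 20.1 FPKM in the IL-16 libraries, against 39.4 and 37.6 FPKM in the PBS libraries. The means were 21.8 ± 2.46 FPKM with IL-16 and 38.5 ± 1.26 FPKM with PBS (SD, n = 2 each), and neither IL-16 value came near the PBS values. The log2 fold change was -0.79 (SE 0.10, unadjusted p = 0.000361, adjusted p = 0.0656 in limma). Ankrd37 has no copy row of its own and kept this log2 fold change when copy rows of other genes were summed. It passed with copy rows summed (adjusted p = 0.0325), once GC content and transcript length were corrected for (0.0370) and without IL-16 replicate 1 (0.0116), and its adjusted p ran from 0.0116 to 0.274 over 14 alternatives. In GENCODE, exons of Ankrd37 overlap those of Ufsp2 by 57 bases and of Lrp2bp by 349 bases on the opposite strand. In all, 14 of the 36 members share exon bases with a gene on the opposite strand, and no source used here states whether counting used strand. Bnip3 and Higd1a share 504 and 683 bases with Gm45507 and Gm47112, genes not analysed here. Ufsp2 was 18.2 and 22.8 FPKM in the IL-16 libraries, against 15.8 and 17.0 FPKM in the PBS libraries. Lrp2bp did not exceed 0.213 FPKM.

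The other HIF targets differed by less. Hilpda, which encodes a lipid droplet protein that restrains lipolysis, was 80.0 and 68.6 FPKM in the IL-16 libraries, against 80.8 and 92.1 FPKM in the PBS libraries, a log2 fold change of -0.22 (adjusted p = 0.294). The angiogenic factor gene Vegfa was 69.9 and 70.1 FPKM in the IL-16 libraries, against 73.6 and 74.1 FPKM in the PBS libraries. Kdm3a (a histone H3 lysine 9 demethylase), Mxi1 (a MAX partner that opposes MYC) and P4ha1 and P4ha2 (catalytic subunits of collagen prolyl 4-hydroxylase) had log2 fold changes of -0.089, -0.12, -0.081 and -0.094, none past an unadjusted p of 0.05. With the same correction for GC content and length, Hilpda was at -0.13, Kdm3a at -0.018, Mxi1 at -0.053 and P4ha1 at -0.0077 on the log2 scale. P4ha2 was at -0.097 with that correction. Among members grouped here as HIF targets, apart from the glycolytic genes, only Ndrg1 had a log2 fold change above 0. This stress-responsive gene induced by HIF was 208 and 243 FPKM in the IL-16 libraries, against 199.6 and 199 FPKM in the PBS libraries. IL-16 replicate 2 was the high value (log2 fold change 0.18, limma adjusted p = 0.326). Of the 14 HIF pathway and target genes, 12 had a log2 fold change below 0, with a median of -0.091. With GC content and length corrected for, 12 were below 0 and the median was -0.074. The median of all rows so corrected was -0.0026. Of the 22 enzymes, carriers and flux regulators, 12 were below 0, with a median of -0.14. Among all tested rows 57.8% were below 0, a larger share than among the enzymes, carriers and flux regulators (54.5%) and a smaller one than among the HIF genes (85.7%).

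**Figure D3:**
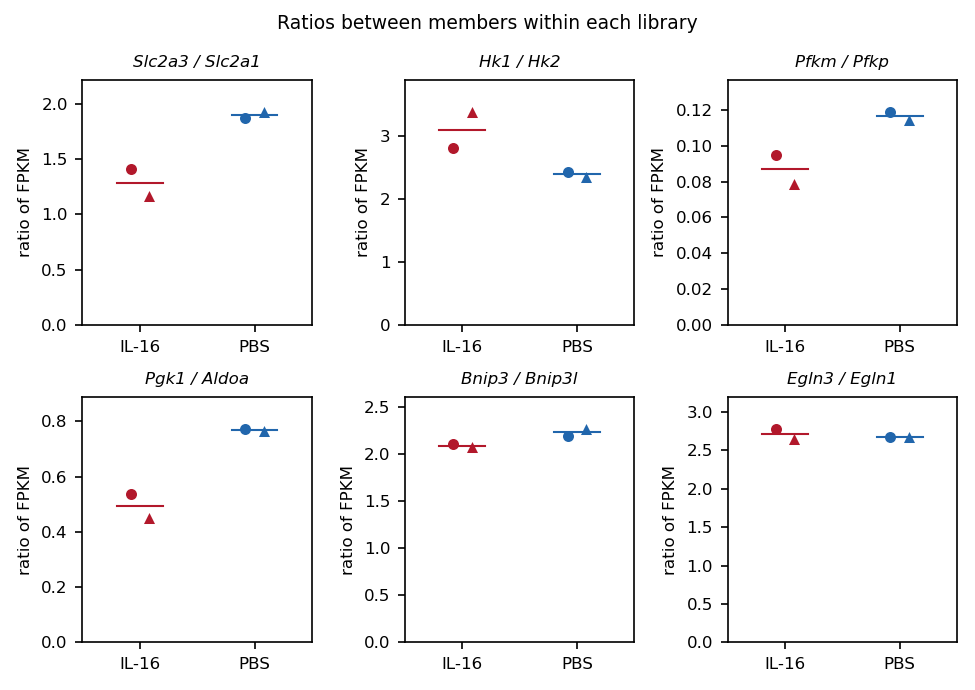
Ratio of the levels of 2 members within each library, with IL-16 on the left and PBS on the right, points for libraries, lines for the mean of 2 libraries and linear axes that start at 0. Slc2a3 over Slc2a1, Pfkm over Pfkp and Pgk1 over Aldoa lie lower in both IL-16 libraries, and Egln3 over Egln1 overlaps. Hk1 over Hk2, with the copy row Hk2-2 left out, lies higher.

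Such ratios do not depend on how a library is scaled. They were computed for 13 pairs chosen after the values were seen and carry no test, since the smallest two-sided exact permutation p for 2 against 2 libraries is 0.333. Bnip3 over Bnip3l was 2.10 and 2.07 in the IL-16 libraries, against 2.20 and 2.26 in the PBS libraries, a small difference beside those of Slc2a3 over Slc2a1 and Pgk1 over Aldoa. Slc16a1 over Slc16a3 was 0.0828 and 0.0786 in the IL-16 libraries, against 0.0993 and 0.0909 in the PBS libraries. Egln3 over Egln1, at 2.78 and 2.65 in the IL-16 libraries, against 2.67 and 2.67 in the PBS libraries, overlapped between groups, as did P4ha1 over P4ha2 and Ldha over Ldhb.

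The IL-16 libraries were unequal, and replicate 2 lay further from PBS in most members that were lower. Relative to the PBS mean, the median over the 22 enzymes, carriers and flux regulators was -0.053 for replicate 1 and -0.17 for replicate 2 on the log2 scale. For the 14 HIF pathway and target genes it was -0.10 and -0.13, and for all tested rows -0.019 and -0.063. Pgk1 was -0.34 in replicate 1 and -0.67 in replicate 2, and Higd1a was -0.56 and -1.07, whereas Bnip3 was -0.31 and -0.37 and Bnip3l -0.22 and -0.27. The mitophagy receptor genes thus stood at like distances from PBS in both IL-16 libraries. Ldha, in contrast, was -0.036 in replicate 1 and -0.26 in replicate 2, Eno1 was -0.10 and -0.27, and Hk2 was -0.11 and -0.35. Ankrd37 was -0.68 and -0.90, far from PBS in both. Without IL-16 replicate 1, 15 members passed an adjusted p under 0.05, 14 lower and 1 higher (Ndrg1), or 41.7% of members. In that fit 10.9% of all tested rows passed as lower and 6.44% as higher, with the lone IL-16 library assumed to vary like the PBS libraries. Without IL-16 replicate 2 no member passed, and 11 were lower and 3 higher at an unadjusted p under 0.05. In that fit 11.1% of all tested rows were lower and 8.9% higher at the same p.

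**Figure D4:**
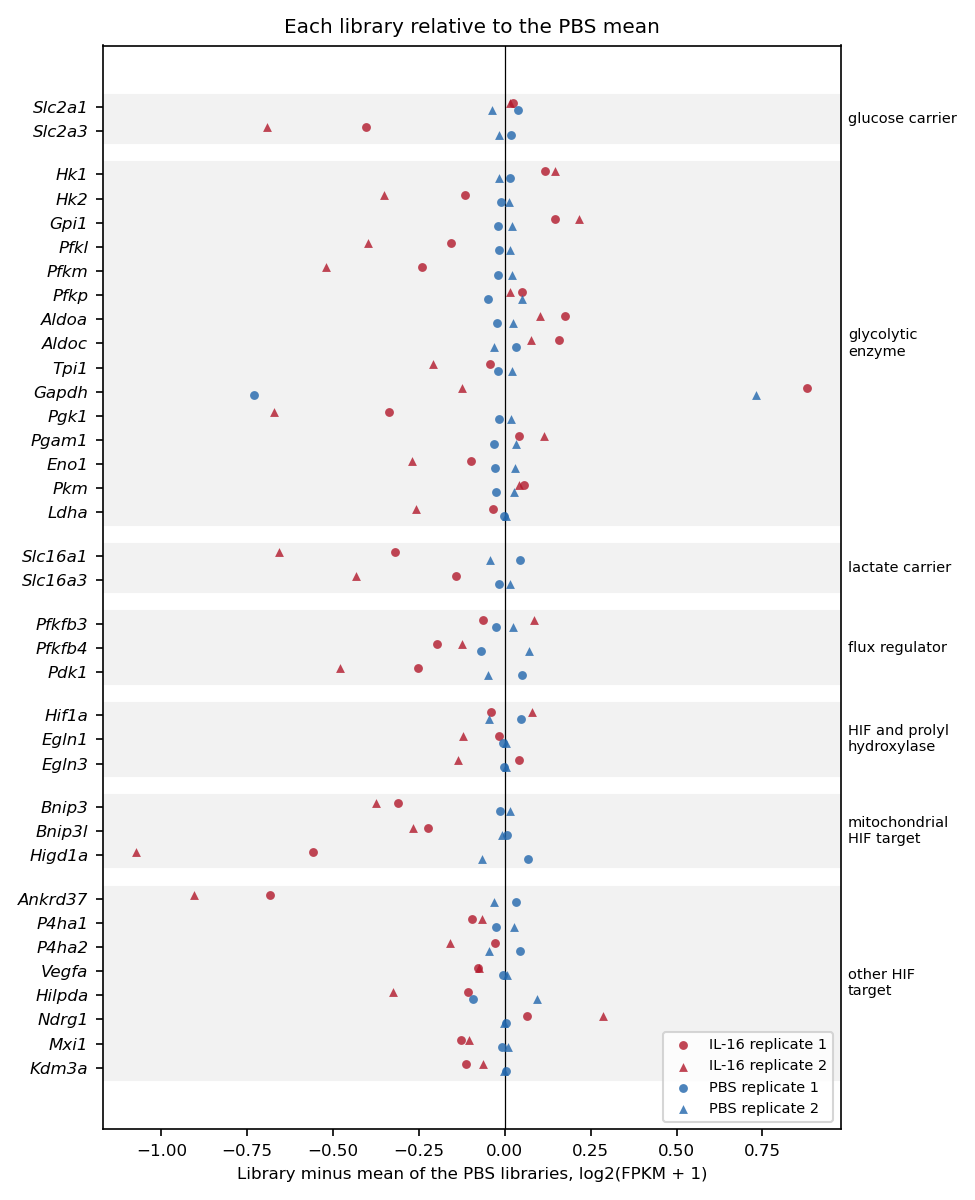
Each library minus the mean of the PBS libraries for each gene, on the log2(FPKM + 1) scale, with IL-16 libraries in red and PBS libraries in blue. IL-16 replicate 2 (red triangles) lies left of IL-16 replicate 1 (red circles) in 25 of 36 members, against 58.3% of all tested rows.

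Further genes of the same pathways, taken from lists of 103 symbols, also held no gene past an adjusted p under 0.05 in limma. Of 18 tested paralogues and further steps of glycolysis, 3 were lower at an unadjusted p under 0.05 and none higher, a share near the 13.9% of all tested rows that were lower. The carrier gene Slc2a6 was 3.64 and 3.35 FPKM in the IL-16 libraries, against 4.86 and 5.98 FPKM in the PBS libraries (log2 fold change -0.51, adjusted p = 0.130). Pfkfb2, another gene for the enzyme that sets fructose 2,6-bisphosphate, and Pgam5, a mitochondrial phosphatase gene, had log2 fold changes of -0.32 and -0.33. Pdk2, a paralogue of Pdk1, was 5.12 and 5.87 FPKM in the IL-16 libraries, against 4.53 and 4.07 FPKM in the PBS libraries, with both IL-16 values above both PBS values (log2 fold change 0.29, adjusted p = 0.218).

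Of 38 further HIF targets, 9 were lower and 1 was higher at an unadjusted p under 0.05, where 13.9% and 9.59% of all tested rows were. Their median log2 fold change was -0.086. In all, 22 of the 38 had a log2 fold change below 0 (57.9%), about the 57.8% of all tested rows. The IL-16 libraries lay below the PBS libraries without overlap in 20 of them and above in 11, where 34.8% and 24.1% of all tested rows did. Ak4, a mitochondrial adenylate kinase gene, was 12.7 and 11.3 FPKM in the IL-16 libraries, against 17.2 and 16.7 FPKM in the PBS libraries (log2 fold change -0.47, adjusted p = 0.105). Fam162a, which encodes a mitochondrial protein, was 153 and 128 FPKM in the IL-16 libraries, against 187 and 183 FPKM in the PBS libraries (log2 fold change -0.40, adjusted p = 0.131; log2 fold change -0.24 with the correction for GC content and length). Both genes had IL-16 libraries below PBS libraries without overlap, as did Narf (log2 fold change -0.33). The heme oxygenase gene Hmox1 was 11.7 and 13.8 FPKM in the IL-16 libraries, against 7.48 and 9.49 FPKM in the PBS libraries. It was the gene of this list that was higher at an unadjusted p under 0.05 (log2 fold change 0.54, limma adjusted p = 0.133). Among 10 tested genes of the HIF pathway itself, 9 had log2 fold changes below 0, against 57.8% of all tested rows. Only 1 of the 10, Rbx1, was lower at an unadjusted p under 0.05 and none was higher, where 13.9% and 9.59% of all tested rows were. The list includes parts of the ubiquitin ligase that destroys HIF-1α, such as Rbx1 and Vhl. Rbx1 was 21.1 and 16.5 FPKM in the IL-16 libraries, against 25.6 and 27.1 FPKM in the PBS libraries (log2 fold change -0.48), and Vhl, whose product recognises hydroxylated HIF-1α, was 15.7 and 13.3 FPKM in the IL-16 libraries, against 17.2 and 17.0 FPKM in the PBS libraries (log2 fold change -0.23). Eloc, another part of that ligase, had a log2 fold change of -0.50, and the hydroxylase gene Egln2 had one of -0.24. The adjusted p in limma was 0.135 for Rbx1, 0.244 for Vhl, 0.217 for Eloc and 0.226 for Egln2.

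The pentose phosphate pathway leaves glycolysis at glucose 6-phosphate and makes NADPH and ribose. G6pdx, its entry enzyme, was 25.7 and 27.2 FPKM in the IL-16 libraries, against 20.6 and 20.1 FPKM in the PBS libraries. Both IL-16 values lay above both PBS values (log2 fold change 0.36, SE 0.075, adjusted p = 0.105 in limma). Its non-oxidative enzymes Taldo1 (transaldolase) and Rpe (ribulose-phosphate epimerase) lay the other way, at log2 fold changes of -0.28 and -0.28, and Prps2, which makes phosphoribosyl pyrophosphate, at -0.18. Over the 11 tested genes the median was 0.0032. Of 10 genes upstream of glycolysis in T cells, 2 were higher and 2 lower at an unadjusted p under 0.05, where 9.59% and 13.9% of all tested rows were. Myc, the transcription factor that drives glycolytic genes after T cell activation, was 79.5 and 114 FPKM in the IL-16 libraries, against 63.9 and 64.8 FPKM in the PBS libraries. The IL-16 libraries were both above PBS and far apart from each other (log2 fold change 0.56, SE 0.17, adjusted p = 0.159). Irf4, a factor induced by T cell receptor signals, was 124 and 127 FPKM in the IL-16 libraries, against 111 and 112 FPKM in the PBS libraries (log2 fold change 0.17), while Rheb, the GTPase that activates mTOR complex 1, and the kinase gene Pdpk1 had log2 fold changes of -0.42 and -0.25.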

How the data were processed

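Polyadenylated RNA was sequenced from 4 libraries of mouse CD4+ T cells, 2 with IL-16 and 2 with PBS, grouped by their titles. The authors deposited 1 table without a stated unit. Its values were read as FPKM because they are not whole numbers and their totals are unequal. Per the submitters' processing notes, fastp, HISAT2 and featureCounts were used with the build GRCm39, and the tool that made the deposited FPKM is not given in the sources used here. As depth is unknown, no counting error could be given.

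Rows with at least 1 FPKM in at least 2 libraries (11882 of 26334) were fitted with limma 3.58.1 in R 4.3.3 on log2(FPKM + 1), with a mean-variance trend and no term but group. Fold changes on this scale understate low genes. P-values were two-sided and adjusted over all tested rows by the Benjamini-Hochberg method, with a threshold of 0.05. The fit was also run on simulated data with the same spread in both groups. In the deposited values the median absolute log2 difference between replicates was 0.142 with IL-16 and 0.0864 with PBS. The simulation therefore does not show whether calls hold for these libraries. The members and lists were chosen with earlier results of these data known. Named genes are all members, their copy rows and, per further list, the 4 with the smallest p. Alternatives varied the pseudocount, filter, scaling, trend, copy rows, replicate block and libraries; the GC and length correction was added after seeing the data. RefSeq promoters and GENCODE vM21 are of GRCm38, not the build in the notes.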

Additional observations from a re-analysis of the deposited data

How the results depend on the processing

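With all 4 libraries, none of the 36 members passed an adjusted p under 0.05 at a pseudocount of 0.1 or 5, without a filter, with a filter at 5 FPKM, with either rescaling, with the replicate block or without the mean-variance trend. With copy rows summed 1 passed, and after the GC and length correction, with fewer rows tested, 1 passed, in both cases Ankrd37. Under that correction 11 members were lower at an unadjusted p under 0.05, with Hk2 in and Bnip3l out. Leaving out IL-16 replicate 1 gave 15 members, and leaving out any other library gave 0. Over all rows, 26 passed, against 0 without a filter (3068 at an unadjusted p under 0.05), 0 without the trend (2620), 53 with median-of-ratios scaling, 40 as TPM, 126 with copies summed, 76 after the correction, and with 1 library left out 2065 (IL-16 replicate 1), 53 (IL-16 replicate 2), 9 (PBS replicate 1) and 9 (PBS replicate 2). With the replicate block 31 rows and 0 members passed and no call of a member changed. The replicate numbers were taken as names only. Over the tested rows, the difference between replicates 1 and 2 with PBS and that with IL-16 had a correlation of 0.0067. This value cannot show whether libraries with the same number share an animal or a batch. The median log2 fold change of the members was -0.10, or -0.059 with median-of-ratios scaling, a scaling under which the median of all rows is -0.0041. That of the HIF genes was -0.091, or -0.045 and -0.065 with median-of-ratios scaling and TPM. With 1 library left out the medians ran from -0.14 to -0.087 for the members, -0.18 to -0.053 for enzymes, carriers and flux regulators, and -0.13 to -0.10 for HIF genes. Log2 fold changes of some genes turned their sign, with no call, when 1 library was left out, and ran from -0.36 to 1.11 for Gapdh, -0.040 to 0.080 for Hif1a, -0.063 to 0.084 for Pfkfb3, -0.018 to 0.083 for Pfkp, -0.020 to 0.057 for Slc2a1, -0.14 to 0.040 for Egln3 and -0.0079 to 0.15 for Eno1-2. The cause of these shifts was not tested. With 2 libraries a group and unknown depth, small differences cannot be resolved.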
